A study of Mus musculus with 9 samples.

Results

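The nuclear factor I (NFI) family consists of 4 genes in the mouse, Nfia, Nfib, Nfic and Nfix, and it was followed here by name: every position that the deposited insertion table assigns to one of these 4 of its 22353 gene symbols was kept. NFI proteins are transcription factors that bind DNA as homodimers or heterodimers through a conserved amino-terminal domain and activate or repress transcription through a more variable carboxy-terminal part. In the developing mouse cerebellum they act in maturing granule neurons, where they promote axon and dendrite formation and migration. Sonic hedgehog (SHH) medulloblastoma arises from the progenitors of this lineage. In the embryonic brain and spinal cord Nfia and Nfib also promote the formation of glia.

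The study looked for genes that maintain SHH medulloblastoma in Lazy Piggy mice, whose genome carries a mobile element made of Sleeping Beauty (SB) and piggyBac (PB) parts. The element can land in or near a gene, and the deposited table counts sequencing reads per landing position. The groups were tumours of 72 animals treated with tamoxifen (TAM+) and tumours of 47 animals without it (TAM-), all of the lazy_piggy genotype; the sources used here state no strain, age, dose or driver alleles of the transposases. The element started from chromosome 10 in 53 TAM+ and 37 TAM- animals and from chromosome 7 in 19 TAM+ and 10 TAM- animals.

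Each tumour was read in 3 kinds of library. IR libraries start from the SB ends, PB libraries from the PB ends, and JX libraries from the junction between the SB and PB parts, each with a left (L) and a right (R) end. A read of bulk tumour DNA does not show whether few cells carry an insertion or whether its end amplified poorly. Counts are of amplified reads without molecular identifiers, so the 95% Wilson intervals below, and the limit of 3 counts used where a tumour has 0, cover counting error only.

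Per animal, IR totals ranged over 295999 to 6337624 counts in TAM+ (median 3115243) and 1236372 to 5553180 in TAM- (median 3143569). JX libraries were shallower, with medians of 441808.5 and 287429 counts in TAM+ and TAM- animals, and PB totals had medians of 204963.5 and 216967 counts but went down to 1714. The animals of both arms held 1462 of the 2096 lines that the table lists for the family, of 2830612 lines of these animals in all. Nfia had 579 of these lines with 50688 counts, Nfib 620 lines with 34216 counts, Nfix 169 lines with 11693 counts and Nfic 94 lines with 3483 counts.

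One set of libraries went against its labels. All 16 left JX libraries of sequencing lane 4 (5 TAM+ and 11 TAM-) held a larger share of their counts at the 30 highest IR positions of another animal of that lane (4.98% to 94.9%) than at those of their own animal (0.000310% to 0.0608%), and 14 of them formed mutual pairs. In 15 of these 16 the own share was under 1% and the other share 5% or more, as in 0 of the other libraries. By the larger share alone other libraries also fell short. The own share was the higher one in 77 of 120 left and 75 of 120 right JX libraries. For IR this held in 111 left and 103 right libraries of 120, and for PB in 102 and 87. The 16 libraries of lane 4 were not relabelled, and JX values of the family that change without them are given both ways.

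Few NFI insertions reached the counts needed for a call. To be called in an animal, a site needed 10 or more counts and 1% or more of the counts of that animal's highest site, and a site that met this in several animals was called only in the one with its highest share. By this rule the family had called IR sites in 3 of 72 TAM+ animals, against 0 of 47 TAM- animals: 2 in Nfia, 1 in Nfib and none in Nfic or Nfix. Counted by gene instead of by animal, Nfia and Nfib had a called IR site, both in TAM+ animals only. As background by gene, 4.11% of the 22206 symbols listed in either arm had a called IR site in at least 1 TAM+ animal. The share was 2.25% for at least 1 TAM- animal and 6.05% for an animal of either arm. These are shares of genes and cannot be set against the 3 of 72 animals. No member was called in the 3 animals needed for a test. Of the 38 genes that were, 0 (0.0%) passed Fisher's exact test between arms after adjustment, and 0 did so before it.

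The number of calls depended on the threshold. At 0.1% of the highest site, Nfia had called IR sites in 7 TAM+ animals, against 0 TAM- animals (Fisher's exact test, unadjusted p = 0.0412, adjusted p = 0.732). Of the 1041 genes then tested, 11 (1.06%) had an unadjusted p below 0.05 and 0 (0.0%) an adjusted one. Nfib was called in 2 TAM+ and 1 TAM- animals and Nfix in 1 and 3. At 5% of the highest site no member was called in any library kind.

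In JX libraries 1 TAM+ animal had a called Nfia site and 1 TAM- animal a called Nfib site. Counted by gene, 11.1% of symbols had a called JX site in at least 1 TAM+ animal and 6.87% in at least 1 TAM- animal. The Nfib call rested on a position listed by 97 animals: a TAM+ animal with 58 counts there (1.43% of its highest site) also met both limits but had a slightly lower share than the TAM- animal. Called in every animal that met the limits, Nfib stood at 1 TAM+ and 1 TAM- animals, and without positions spread over many animals at 0 and 0. Leaving out the 16 left JX libraries of lane 4 did not change these counts. In PB libraries no member was called, where 5.81% of symbols were called in TAM+ and 2.66% in TAM-; with positions merged within 100 bp instead of 10 bp, Nfix was called in 1 TAM- animal. Among JX genes called in 3 or more animals, 0 of 220 (0.0%) passed the adjusted test and 1 (0.455%) the unadjusted one. In PB libraries these were 0 of 55 (0.0%) and 1 (1.82%).

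Nfia, which is needed for gliogenesis and for the corpus callosum in mice, carried the highest shares. In a TAM+ animal (tumour A) a site in intron 2 at position 97475064 of chromosome 4 (mm9) held 12818 IR counts, or 0.854% of the animal's IR counts (95% interval 0.840 to 0.869%) and 1.80% of its highest site. All 12818 came from the left SB end and 0 from the right, though that library held 64860 counts. The same position had 14 counts in the left JX library, and the left PB library had 6 counts at 102 bp, in an animal with 1714 PB counts.

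In a further TAM+ animal (tumour B) an Nfia site in intron 10 at position 97769230 held 13499 IR counts, 0.404% of the total (0.397 to 0.411%) and 3.09% of the highest site. It was read from both SB ends, with 4969 counts from the left and 8530 from the right, and from both JX ends, with 66 and 332 counts. PB counts lay on either side, 97 of the left end at 262 bp and 24 of the right end at 124 to 126 bp. Of the leading NFI sites this was the one seen in all 6 library ends.

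The called JX site of Nfia was in intron 1 at position 97317877 in TAM+ tumour D, with 469 JX counts (0.0878%, 0.0802 to 0.0961%). The same position held 2960 IR counts there, 0.635% of the highest IR site and so just below the call, and 532 PB counts lay 113 to 117 bp away. All 3 readings came from left ends only. In TAM- animals the Nfia IR site with the largest share had 423 counts (0.0300%), in intron 1 of 1 animal. The next had 980 counts (0.0259%), in intron 2 of tumour P, which was sequenced deeper.

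Nfib, whose loss in mice impairs lung maturation and forebrain development, had 1 called IR site. In TAM+ tumour C a position in intron 2, 82140473 of chromosome 4, held 16968 IR counts (0.308%, 0.303 to 0.313%), split into 7990 left and 8978 right. Its count stands at the threshold of 1% of the highest site. The right JX library had 45 counts there, and the left PB library had 244 counts at 95 to 96 bp. The left JX library of the same tumour had 0 counts at this position, while the left JX library of TAM- tumour R had 970. Both are among the 16 libraries of lane 4, and they form one of the mutual pairs.

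Some insertions were seen from one kind of library alone. TAM+ tumour E had 1280 left JX counts in Nfib intron 10 at position 81963870 (0.304%, 0.287 to 0.321%), and 0 IR counts within 600 bp, which allows up to 8.5e-05% of its IR counts. TAM+ tumour F had 866 left JX counts in intron 1 of Nfic at position 80888584 of chromosome 10 (0.128%, 0.119 to 0.136%), again with 0 IR counts within 600 bp. TAM+ tumour G had 84 left PB counts in Nfia intron 2 at position 97522536 (0.110%, 0.0889 to 0.136%), and the nearest IR or JX position of the animal was 6365 bp away. A control tumour sequenced in another lane listed 34 left PB counts at that same base.

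Nfix, which is needed for fetal muscle and for neural stem cells in mice, was the member with its leading sites in TAM- animals. Tumour P had 2 of them, 1861 IR counts in intron 2 at position 87267633 of chromosome 8, from the right end only, and 1840 counts in intron 1 at position 87320678, from both ends. Neither had JX counts within 600 bp in a JX total of 231501, and its PB total was only 7071. TAM- tumour Q had 1771 IR counts in intron 8 at position 87240200, 359 left and 1412 right, with 592 right PB counts 22 to 26 bp away in exon 9 and 107 left PB counts 58 bp away on the other side. Those 592 counts were 0.180% of the tumour's PB counts (0.166 to 0.195%) and 0.978% of its highest PB site. The Nfix IR site with the largest share in TAM+ animals had 409 counts (0.0195%). Nfic, which is needed for tooth root formation in mice, had no IR site above 359 counts in either arm.

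**Figure D1:**
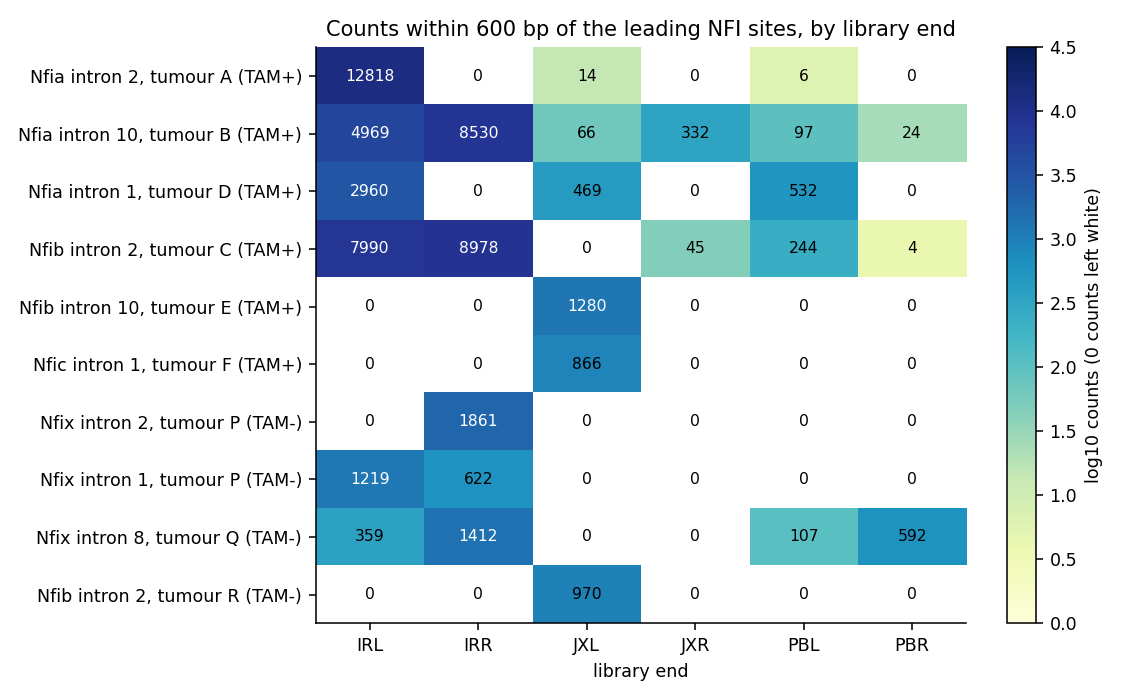
Counts within 600 bp of 10 leading NFI sites (lines, TAM+ above TAM-) in each of the 6 library ends (columns), coloured on a log10 scale with 0 left white. Nfia in tumour B has counts in all 6 ends, tumours E and F only in the left JX end, and the 970 counts of tumour R lie at the Nfib position of tumour C.

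Other animals also listed the positions of these leading sites. For the leading IR sites there were 29 such cases, and 26 of them were in animals that shared a sequencing lane with the leading tumour. The sum over the 6 ends was below 20 counts in 25 cases and at most 222 in all but 1, the 970 left JX counts of tumour R. For the leading JX sites 13 of 15 cases were in a shared lane, among them tumour C at the position of tumour R. For the leading PB sites 0 of 3 were: TAM+ tumour C and a TAM+ animal of another lane shared the left PB base in Nfib intron 2, with 237 and 59 counts, and the cases in Nfia and Nfic had 34 and 3 counts. Whether shared positions arose in the tumours or during library preparation and sequencing was not tested.

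Below the call, NFI positions were listed in libraries of nearly every tumour. Over both arms the median of 22206 symbols was listed in IR libraries of 18 animals. By this number Nfia (105 animals) ranked 328 and Nfib (98) ranked 494. Nfix (56) ranked 2783 and Nfic (39) ranked 5175. Listed body positions span 528.195 kb in Nfia and 204.164 kb in Nfib. The part of gene length was not tested, nor whether low counts came from the tumour itself. At 1 count or more, at least 1 member was listed in IR libraries of 72 of 72 TAM+ and 45 of 47 TAM- animals. At 10 counts or more the numbers were 60 of 72 (83.3%) and 36 of 47 (76.6%). Nfia was listed in IR libraries of 67 of 72 TAM+ animals (93.1%), against 38 of 47 TAM- animals (80.9%), a difference of 12.2 percentage points (Fisher's exact test, unadjusted p = 0.0775, adjusted p = 1). Nfib was listed in 63 TAM+ animals (87.5%) and 35 TAM- animals (74.5%), with unadjusted p = 0.0865 and adjusted p = 1 by the same exact test. Nfic was listed in 25 (34.7%) and 14 (29.8%), and Nfix, the member with the lower TAM+ share, in 31 (43.1%) and 25 (53.2%), with adjusted p = 1 for both by the exact test. Across the 20759 genes tested, 0.0% passed the adjusted test, 3.31% had an unadjusted p below 0.05, and 58.7% were listed in a higher share of TAM+ animals. With sequencing lane as a block, an exact test conditional on each lane gave unadjusted p = 0.215 for Nfia and 0.0539 for Nfib, both with adjusted p = 1.

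**Figure D2:**
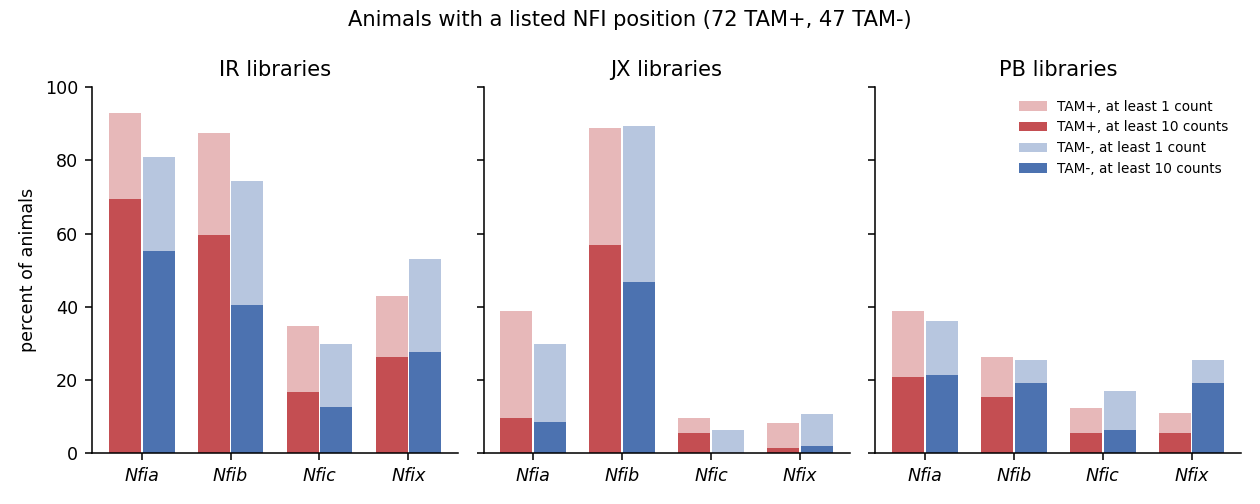
Percent of 72 TAM+ and 47 TAM- animals (bars, TAM+ left) in which each NFI gene was listed, by library kind, at 1 count or more (pale) and 10 counts or more (dark). Nfia and Nfib reach 93.1% and 87.5% of TAM+ animals in IR libraries, and Nfib 88.9% and 89.4% of TAM+ and TAM- animals in JX libraries.

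The number of listed positions moved with these calls. TAM+ animals had a median of 9082 listed IR sites and TAM- animals 8016. The 105 animals with Nfia listed had a median of 9736 and the 14 without it 6094.5, although their median IR counts were 3105262 and 3209601.5. For Nfib the medians were 9777 in the 98 animals with it and 5464 in the 21 without, for Nfic 12906 and 7685.5, and for Nfix 10309 and 7416. The part of this in the arm differences was not tested.

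With at least 10 counts required, Nfia was listed in IR libraries of 50 TAM+ animals (69.4%) and 26 TAM- animals (55.3%). Nfib had 43 (59.7%) and 19 (40.4%), Nfic 12 and 6, and Nfix 19 and 13. The lowest unadjusted p was that of Nfib (0.0600 by the exact test), and the adjusted p was 1 for each member; 3.09% of the 17878 genes tested had an unadjusted p below 0.05.

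In PB libraries Nfia was listed in 28 TAM+ and 17 TAM- animals, Nfib in 19 and 12, and Nfic in 9 and 8. Nfix was listed in 8 TAM+ animals (11.1%), against 12 TAM- animals (25.5%), with an unadjusted exact p of 0.0476 and an adjusted p of 1. With sequencing lane as a block the unadjusted exact p was 0.020 and the adjusted p 1. At 10 counts or more it was in 4 TAM+ and 9 TAM- animals (unadjusted exact p = 0.0327, adjusted p = 1), where 1.74% of the 9824 genes tested had an unadjusted p below 0.05. Of all genes tested in PB at 1 count, 1.8% had an unadjusted p below 0.05 and 0.0% an adjusted one. The Nfix PB counts summed to 173 in TAM+ and 1100 in TAM-, and tumour Q alone gave 699 of the TAM- sum.

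Shares of counts were low and uneven, and given without a test. Nfia took from 0 to 0.860% of an animal's IR counts in TAM+ (median 0.00184%), against 0 to 0.0301% in TAM- (median 0.000971%). In 5 TAM+ animals the share was above that of every TAM- animal: 0.860% and 0.436% in tumours A and B, 0.105% in tumour D, and 0.0464% and 0.0313% in the others. The other TAM+ animals overlapped with TAM- animals. Such counts are given here without their values over all genes, and TAM+ has more animals, 72 against 47. Nfib took 0 to 0.327% in TAM+ (median 0.00116%), against 0 to 0.0188% in TAM- (median 0.000255%), with 3 TAM+ animals above every TAM- animal: tumour C and animals at 0.0262% and 0.0198%. For Nfix the order of the maxima was the other way, 0.0195% in TAM+ and 0.0977% in TAM-, and 2 TAM- animals, the higher being tumour P, lay above every TAM+ animal. Nfic stayed at or below 0.00828% in TAM+ and 0.00587% in TAM-. In JX libraries the Nfib medians were 0.00286% in TAM+ and 0.00258% in TAM- (0.00332% and 0.00289% without the 16 libraries of lane 4), and those of the other members were 0 in both arms.

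**Figure D3:**
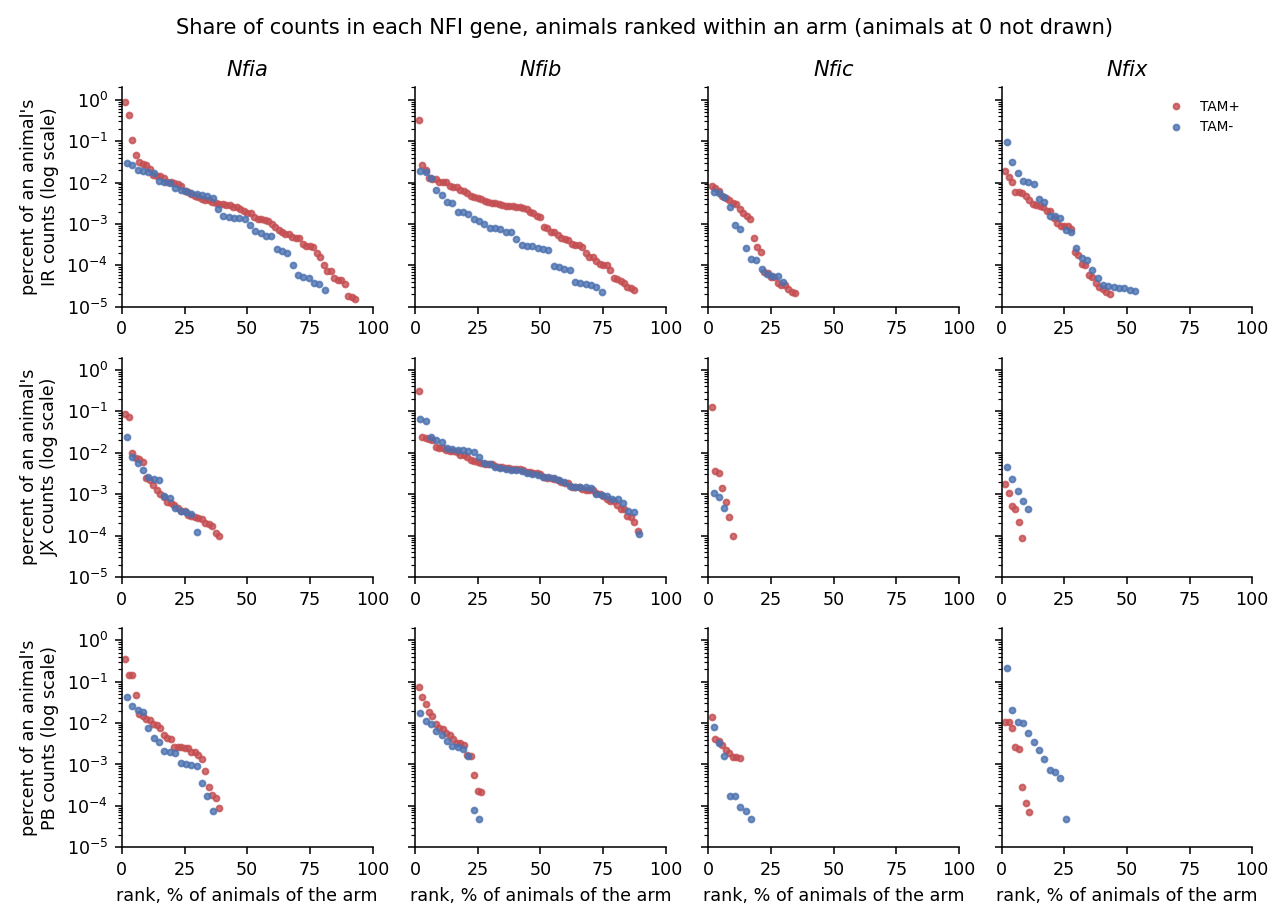
Percent of an animal's counts in each NFI gene (columns) and library kind (panel lines), log scale, with animals ranked from the highest down within TAM+ and TAM- and animals at 0 not drawn. TAM+ tumours A and B are highest for Nfia and tumour C for Nfib in IR; TAM- tumour P is highest for Nfix in IR and TAM- tumour Q in PB.

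Most NFI insertions lay in introns. Over both arms there were 288 distinct IR sites of Nfia, 177 of Nfib, 75 of Nfix and 40 of Nfic. All 265 body sites of Nfia and all 71 of Nfix were listed by the authors as disrupting the coding sequence, as were 117 of 118 for Nfib and 17 of 21 for Nfic, against 82.0% over all genes. The listing counts an intron as part of the coding sequence it interrupts, and 1 Nfia, 1 Nfib, 0 Nfix and 6 of the 21 Nfic body sites lay in an exon. Nfib and Nfic also had many sites outside the body, 59 of 177 and 19 of 40. The nearest upstream positions lay 1149 bp before Nfib, 295 bp before Nfic and 134 bp before Nfix. Nfia had none listed on its upstream side, where positions of the neighbouring gene E130114P18Rik lie 2.205 kb from the nearest Nfia position.

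Density was taken over the span between the outermost body positions listed in animals of both arms, not over the annotated gene. For Nfic this span was 30.652 kb. Per 100 kb of it, IR sites numbered 79.6 in Nfix, 68.5 in Nfic, 57.8 in Nfib and 50.2 in Nfia. The median of 6485 genes with such a span of 30 to 2500 kb was 45.1 (quartiles 33.6 and 59.0). Nfix and Nfic lay above the upper quartile and the other members within the quartiles. Nfic lies on chromosome 10, where the element started in 90 of the 119 animals. IR libraries listed Nfic in 35.6% of these and in 24.1% of animals with donor chromosome 7. For Nfia the shares were 87.8% and 89.7%, for Nfib 82.2% and 82.8%, and for Nfix 46.7% and 48.3%. The part of the donor chromosome was not tested. PB density had the same member on top, 31.4 sites per 100 kb in Nfix against a median of 14.4.

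Within Nfia the sites were not spread evenly. Intron 1, with 199.497 kb between its outermost positions, had 52 IR sites (26.1 per 100 kb), while intron 2, with 172.357 kb, had 104 (60.3 per 100 kb). Intron 3 had 76.5 and intron 10 60.0 per 100 kb. PB sites showed the same order of introns 1 and 2, with 11.5 and 19.7 per 100 kb, and so did JX sites, with 3.51 and 8.70 (3.51 and 7.54 without the 16 libraries of lane 4). In Nfib, 60 of 118 body sites were in intron 2, the longest (52.9 per 100 kb), and in Nfix intron 2 had 38 sites (88.1 per 100 kb) and intron 1 19 sites (71.5 per 100 kb). These densities were not tested, and how well each stretch can be mapped was not measured.

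**Figure D4:**
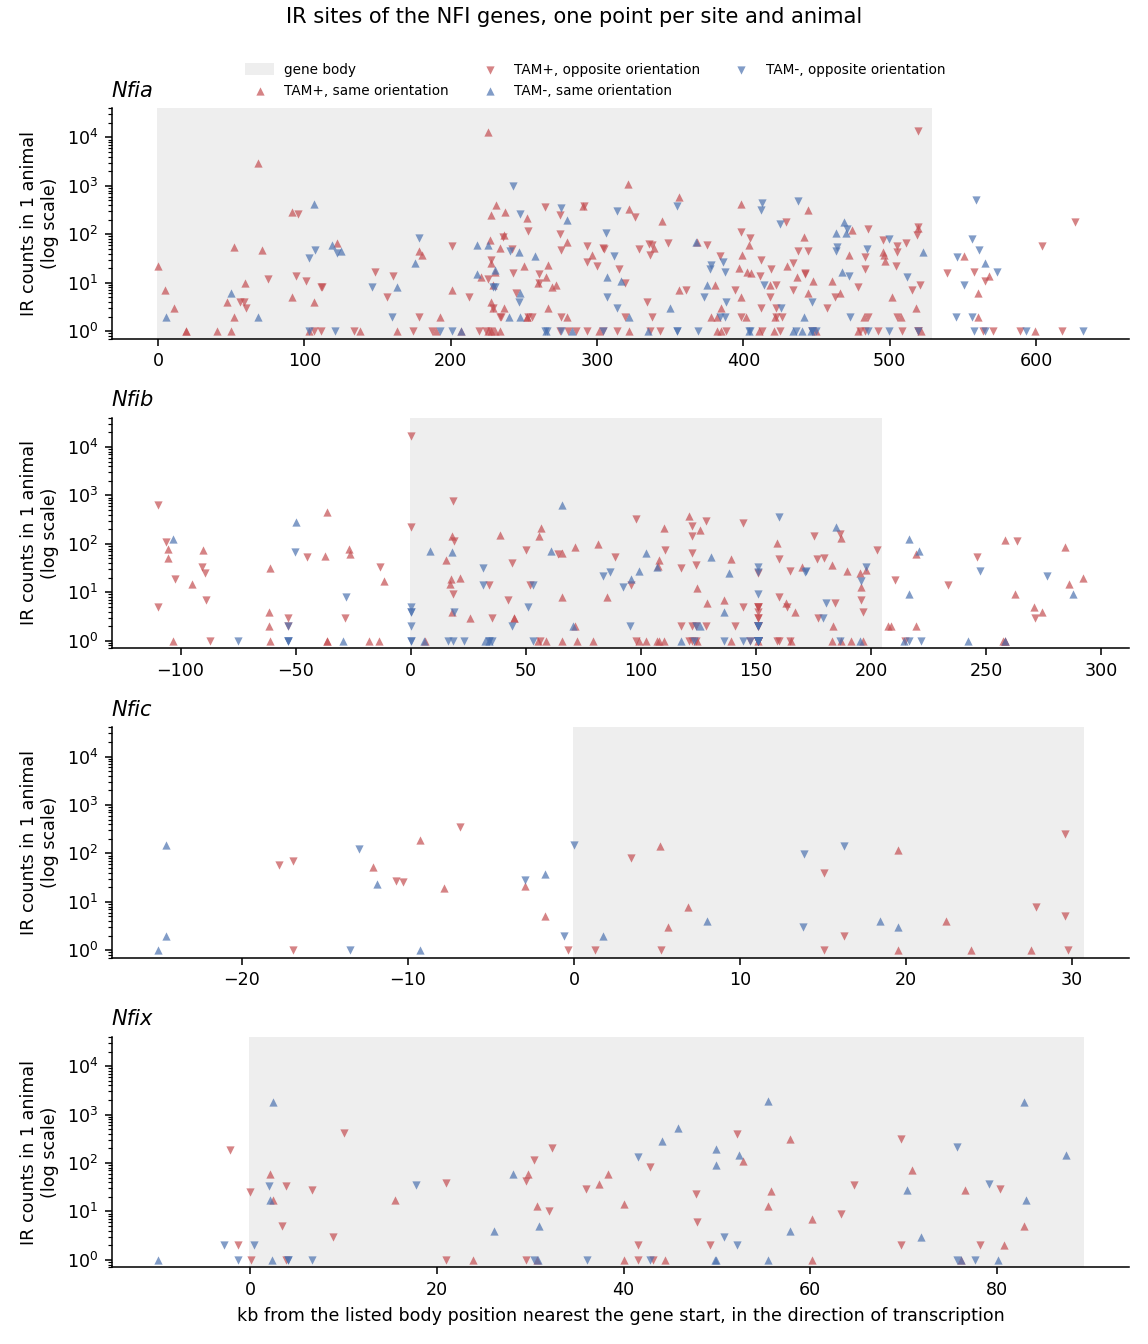
IR sites of each NFI gene by distance in kb along the gene (zero at the listed body position nearest the gene start) and IR counts in 1 animal on a log scale, TAM+ red and TAM- blue, with triangles up for the orientation of the gene and down for the opposite one. Grey marks the span between the outermost listed body positions. The left part of Nfia, its intron 1, is more thinly filled than the rest, and the 3 called sites, in TAM+ animals, stand above all other points.

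Orientation was close to even for 3 members. Of the IR sites of Nfia, 120 had the orientation of the gene and 168 the opposite one (58.3% opposite, unadjusted exact binomial p = 0.00552, adjusted p = 1). Over the 18038 genes with at least 6 listed IR sites, 4.0% had an unadjusted p below 0.05, 0.0% passed the adjusted test, and 50.5% of all sites were opposite. Nfib had 92 and 85, Nfic 19 and 21, and Nfix 37 and 38 sites in the same and the opposite orientation. Of the 3 called IR sites, the one in tumour A had the orientation of Nfia and the others were opposite to their gene.

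A single position made up most of the JX recurrence of Nfib. Position 81989943 of chromosome 4, in intron 6, was listed in JX libraries of 59 of 72 TAM+ animals (81.9%) and 38 of 47 TAM- animals (80.9%). Counts ranged from 1 to 62 in the listed TAM+ animals (median 14) and from 1 to 67 in the listed TAM- animals (median 8.5), so the arms overlapped. It was the called JX site of a TAM- animal, with 52 counts. It held 1106 JX counts in TAM+ and 600 in TAM-, of 2668 and 1823 for the whole gene. Without the 16 left JX libraries of lane 4 it was listed in 57 TAM+ animals (79.2%) and 36 TAM- animals (76.6%), with 1071 and 534 counts of 2595 and 757; the 970 counts of tumour R make up most of the TAM- drop for the gene. IR libraries listed it in 21 TAM+ and 13 TAM- animals, and PB libraries in none. It also appeared in JX libraries of 2 of 5 control tumours, 3 of 9 control DNAs (JX values were available for 7) and 6 of 8 animals with no usable arm.

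At this position the listed orientation went with the library end. All 70 left JX lines were listed in the orientation of Nfib (490 counts) and all 86 right JX lines in the opposite one (1216 counts), and the same held for the 14 left and 25 right IR lines. Without lane 4, 56 left JX lines with 389 counts remained. At the called sites of tumours B and C, by contrast, both SB ends gave the same orientation for nearly all counts. For the test, each site took the orientation with most counts over the animals of both arms. Every listing of this position was therefore scored as opposite. Counted this way once per animal, 129 of 167 Nfib JX listings were opposite to the gene (adjusted exact binomial p = 7.05e-12). The p repeats the label of a shared site and does not measure separate insertions, and 47.9% of the 11100 genes tested passed that count. Without the lane 4 libraries the Nfib count was 131 of 153, and 47.8% of 10832 genes passed.

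**Figure D5:**
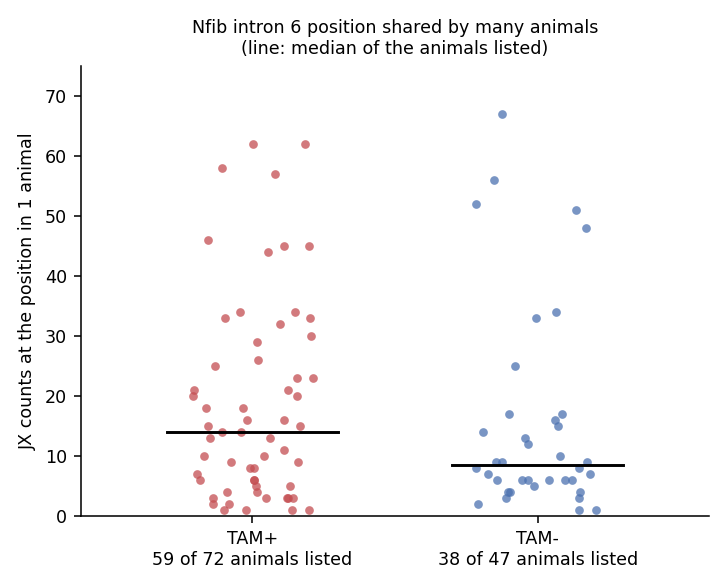
JX counts at the shared Nfib intron 6 position in each animal that lists it, TAM+ left and TAM- right, with the median of the listed animals as a line. The animals listed run from 1 to 62 counts in TAM+ and 1 to 67 in TAM-, and 59 of 72 and 38 of 47 animals list it.

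Without that position, Nfib was listed in JX libraries of 30 TAM+ and 21 TAM- animals, or 29 and 17 without the lane 4 libraries. In IR libraries it was then listed in 61 of 72 TAM+ animals (84.7%) and 31 of 47 TAM- animals (66.0%), with an unadjusted exact p of 0.0245 and an adjusted p of 1; this count was made after the position had been seen. With all positions, JX libraries listed Nfia in 28 TAM+ and 14 TAM- animals, Nfib in 64 and 42, Nfic in 7 and 3, and Nfix in 6 and 5, each with adjusted p = 1 by Fisher's exact test; 2.24% of genes had an unadjusted p below 0.05 and 0.0% an adjusted one. Without the 16 left JX libraries of lane 4 these were 27 and 11, 63 and 40, 7 and 3, and 6 and 4. A second position shared by many animals, 82194231 upstream of Nfib, was listed in JX libraries of 8 TAM+ and 7 TAM- animals with at most 21 counts (7 and 5 without the lane 4 libraries).

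Junction reads accompanied few NFI sites outside the highest IR counts of TAM+ animals. Of NFI sites with 1000 or more IR counts in an animal, 4 of 5 in TAM+ and 0 of 3 in TAM- had JX counts within 100 bp. All 3 of the TAM- sites were those of Nfix in tumours P and Q. With 100 to under 1000 counts the numbers were 6 of 63 (9.52%) and 2 of 34 (5.88%), and with 10 to under 100 counts 2 of 172 (1.16%) and 4 of 72 (5.56%). Below 10 counts the share was higher again, 25 of 263 (9.51%) and 13 of 154 (8.44%), and 19 and 9 of these were the shared Nfib intron 6 position. Over all genes the shares at 1000 counts or more were 52.3% in TAM+ and 55.2% in TAM-, and at 100 to under 1000 counts 11.4% and 9.50%. At 10 to under 100 counts they were 9.41% and 7.65%, and below 10 counts 13.7% and 14.0%. Without the lane 4 libraries the lowest class of TAM- had 11 in place of 13, and the other NFI counts did not change. PB counts within 1000 bp accompanied 4 of 5 TAM+ and 1 of 3 TAM- NFI sites of 1000 or more counts. Over all genes these shares were 63.8% and 65.5%.

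PB positions of the family lay near IR or JX positions in the minority of cases. Of 215 PB sites counted per animal, 61 (28.4%) had an IR or JX position of the same animal within 1000 bp, against 27.7% over all genes. Their median distance was 117 bp, and 55 of the 61 (90.2%) were listed in the orientation opposite to that with most counts at the nearest IR or JX position, against 84.7% over all genes. For 10 of the 61 that position was listed in both orientations; of the other 51, 45 (88.2%) were opposite, against 85.4% over all genes. The largest NFI PB sites with no IR or JX position within 1000 bp had 122 counts (Nfix intron 1, a TAM- animal) and 94 counts (upstream of Nfib, another TAM- animal).

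Genes tied to the family by function or position gave no adjusted call. Among 20 partners and targets of NFI proteins in the cerebellum and in glia, 2 had a called IR site, 5 a JX site and 5 a PB site in either arm, where 6.05% of all symbols had one in IR, 3562 of 22206 in JX and 7.89% in PB, and 0 passed the adjusted test in either direction in any library kind, called or listed. The gliogenic factor Sox9 had called JX sites in 3 TAM+ and 0 TAM- animals (exact p = 0.277, adjusted p = 1), but in 2 TAM+ and 1 TAM- animals without the lane 4 libraries. Cdh2, Creb1 and Efnb1 were called in at most 1 animal of a library kind. Among 26 transcription factors of the granule neuron lineage 5 had a called IR site, 6 a JX site and 4 a PB site, and 0 passed. Gli3, a zinc-finger mediator of hedgehog signalling, was called in JX in 2 TAM+ and 2 TAM- animals (2 and 3 without the lane 4 libraries); Pbx3 and Zeb1 reached 2 animals each. The median difference in listed IR animals was 0.0296 percentage points for the first list and 0 for the second, against 1.30 over all genes tested.

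Of the 16 nearest neighbours of the 4 genes, Mpdz was called in 1 TAM+ animal (IR), Ncln in 1 TAM+ animal (PB), and Gm12695 (IR), Gm5860 (JX) and Inadl (PB) in 1 TAM- animal each. Tm2d1 was called in 1 TAM- animal in each of IR, JX and PB; Tm2d1 and Ncln were added after their values were seen. Nfia, called in 3 animals over the 3 library kinds together, was set against the 420 genes called in at least 3 animals. Reep3 shared 2 of its own 4 animals with Nfia (Jaccard index 0.4), Csmd1 shared 2 of 7 (0.25) and 6230409E13Rik 1 of 3 (0.2), over 119 animals.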

How the data were processed

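The deposited table lists, per library and genome position, a raw count with no scaling, as deposited by the authors, together with a gene, gene part and orientation. Positions are on mm9, the build that the submitters' processing notes name; aligner, counting rule and annotation were not given in the sources used here. Genomic DNA was sheared, ligated to splinkerette adaptors, cut with BamHI and amplified, per the labels' protocols. Arms and animals came from the authors' sample sheet. The animal was the replicate, with its ends and lanes summed. IDs spelled with and without a leading zero were joined, and 2 animals with conflicting arms were left out of both arms.

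Positions within 10 bp were merged per library kind over the animals of both arms. A site that met the call in more than 1 animal was kept for the one with its highest share. A position was spread when at least 3 animals listed it and none held over 50% of its counts. Arms were compared per gene with two-sided Fisher's exact tests on animals, for genes in at least 3 animals, and orientation with two-sided exact binomial tests, both with Benjamini-Hochberg adjustment over all genes of a library kind at a threshold of 0.05 (SciPy 1.17.1). Tests were tried on simulated data with planted arm differences larger than those of any member and without lane effects or shared positions. The chance of finding differences as small as those of the members was therefore not measured. Alternatives covered the call threshold, merging distance, spread positions, donor chromosome, libraries and, chosen after seeing the data, lane or animal ID stem as a block. Named were the members, up to 4 genes per list and 3 genes most like a member, of which 1 is not reported here; members and lists were chosen with earlier results of these data known. No sequences around the insertions were read, since no mm9 genome was used here.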

Additional observations from a re-analysis of the deposited data

Results flagged for a closer look

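Tumours outside both arms gave 2 further Nfia sites, in data that entered no comparison. An animal with no usable arm had 19801 IR counts in Nfia intron 4 at position 97674738 of chromosome 4 (0.894%, 95% Wilson interval 0.881 to 0.906%) and 5364 in intron 9 at position 97734218 (0.242%, 0.236 to 0.249%). Both came mostly from the right SB end, with 19523 and 5361 counts, and both had JX counts at the same base and PB counts within 600 bp. The control tumours reached 0.157% for Nfia.

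Among the 5 control tumours a single animal stood apart from the other 4 in 9 measures. For Nfia in IR this was 1 control tumour at 0.157%, of which a site in intron 2 at position 97588515 held 6457 counts. For the other 8 it was a different control tumour: 0.0196% for Nfib and 0.00761% for Nfix in IR, 0.0242% for Nfib, 0.00649% for Nfic and 0.0177% for Nfix in JX, and 0.0189% for Nfib, 0.000802% for Nfic and 0.00415% for Nfix in PB. The limit for such a gap passes about 1 of 20 groups by chance, but this rate was not tested for shares mostly at 0. For Nfix in IR, and for Nfic and Nfix in JX and PB, only 1 of the 5 tumours was above 0. There the gap is at its largest by construction. The 8 measures that share an animal are also not separate observations.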

How the results depend on the processing

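No adjusted test between arms changed its call under any alternative run: 0 genes passed in each library kind, called or listed. For called sites of single members, 51 of 184 alternatives kept a direction, 108 stayed at 0, 11 went to 0 and 14 left 0. At 5% of the highest site all members were at 0, and at 0.1% Nfix took -4.99 percentage points (TAM+ minus TAM-) in IR and -4.26 in PB. The Nfib JX difference of -2.13 went to 0 without spread positions and with donor chromosome 10 alone, and Nfix in PB took -2.13 when positions were merged within 100 bp. For listed positions 82 of 100 kept their direction, 1 went to 0 and 17 turned, all with an adjusted p of 1 where a test was possible. Of these, 3 came from requiring 10 counts, where TAM+ minus TAM- was 10.1 percentage points for Nfib in JX (-0.473 at 1 count), -0.443 for Nfia in PB (2.72) and -3.87 for Nfib in PB (0.857). Leaving out spread positions gave 3.99 for Nfic in PB (-4.52). With donor chromosome 10 alone Nfia and Nfib in PB were at -2.80 and -2.50. With donor chromosome 7 alone Nfic in JX was at -4.74 (3.34 over all), Nfix in JX at 5.26 (-2.30) and Nfic in PB at 5.79. Without the left JX libraries of lane 4 Nfib in JX was at 2.39. Counting each position once per animal let 1656 IR, 5322 JX and 83 PB genes pass the orientation test, against 0 for called sites, since shared positions then count many times. These alternatives on listed positions were chosen after seeing the data. No paired analysis was possible because the labels number lanes and not tumours, so that no replicate number ties a TAM+ to a TAM- animal. With sequencing lane as a block (11 of 14 lanes or lane combinations hold both arms) Nfib in JX was at 0.0373, Nfic in JX at -1.25 and Nfia in PB at -4.27. With the shared stem of the animal ID as a block, where 10 stems with 16 TAM+ and 12 TAM- animals hold both arms, Nfic in IR was at -5.33, Nfia in JX at -14.7, Nfix in JX at 6.67, Nfix in PB at 5.33 and Nfia in IR at 0. Leaving out single animals was not run, with over 40 per arm. Depth limits JX and PB most: 1 tumour had only 1714 PB counts, where 0 counts still allow a share of 0.175%.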
